A study of Homo sapiens with 9 samples.

Results

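The 8 genes described here encode the core of the oxygen-sensing machinery built on the hypoxia-inducible factors (HIFs). They are the HIF subunit genes EPAS1, HIF1A and ARNT, the ubiquitin ligase gene VHL, the asparaginyl hydroxylase gene HIF1AN, and the prolyl hydroxylase genes EGLN1, EGLN2 and EGLN3. They were taken by gene symbol from the deposited table, 8 of its 61806 genes. All 8 had enough reads to be tested.

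A HIF is a dimer of an oxygen-labile alpha subunit, HIF-1 alpha from HIF1A or HIF-2 alpha from EPAS1, and the stable beta subunit made by ARNT. In oxygenated cells the EGLN enzymes hydroxylate prolines of the alpha subunits, the VHL ligase then marks these subunits for destruction, and the hydroxylase made by HIF1AN blocks their contact with the coactivators EP300 and CREBBP. This control acts on protein, whereas the values here are of mRNA. Clear cell renal carcinomas usually lose VHL function, and in 786-O, an established line of that tumour, HIF-2 alpha is the alpha subunit known to accumulate.

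Polyadenylated RNA of 786-O cells was sequenced in 9 libraries, all labelled as kidney epithelial cells of batch 1. Of these, 3 are controls of wild type genotype, 3 are TRIM28 knockdowns and 3 are PARP1 knockdowns; TRIM28 is a transcriptional corepressor and PARP1 a poly(ADP-ribose) polymerase that responds to DNA breaks. The labels give the agents as negative control, TRIM28 or PARP1 siRNA in one field and as shRNA in another, and the protocol calls the controls parental, so the kind of reagent is not settled here, and neither dose nor time is given. Since no label says whether replicates were independent cultures, each p-value reflects only how far these libraries spread, which may be technical.

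The libraries held between 11963110 and 20224374 counted reads. TRIM28 mRNA was at 15.1% of its control level in the TRIM28 knockdown, and PARP1 mRNA at 3.15% in the PARP1 knockdown. PARP1 mRNA was also lower in the TRIM28 knockdown, at 52.9% of control. All 10 markers of renal epithelium and renal carcinoma lines reached 1 FPKM in at least 1 library, among them PAX8 at 33.11 to 55.06 FPKM, whereas 0 of 4 immune, 0 of 4 endothelial and 0 of 3 red cell markers did. FPKM is the read count scaled by exon length and by the library's total. Read counts also followed gene length differently between the groups. The slope of a gene's log2 level, relative to its mean over libraries, on log2 exon length was 0.073 to 0.203 in the controls, -0.024 to -0.001 in the TRIM28 knockdown and -0.167 to -0.097 in the PARP1 knockdown. The share of reads from ribosomal protein genes, which are short, was 10.91 to 12.52%, 13.55 to 15.2% and 14.81 to 19.01% in the same order.

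The promoters of the 3 subunit genes are shown because these genes moved together in the counts below, and those of EGLN1 and EGLN2 because they hold the core of the HIF response element. Sequences are from RefSeq on GRCh38.p14, in which 7 of the 8 genes had an entry. The 250 bases before each start were searched on both strands for ACGTG and GCGTG, the letters of that core. Capitals mark a match. For EPAS1 and ARNT the bases nearest the start are left off, and for EGLN1 and EGLN2 only a stretch around the match is shown. The stretches of EPAS1 and EGLN2 lie inside the gene spans given below, downstream of the gene starts in the deposited table.

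EPAS1 promoter, chr2:46297157-46297401, plus strand: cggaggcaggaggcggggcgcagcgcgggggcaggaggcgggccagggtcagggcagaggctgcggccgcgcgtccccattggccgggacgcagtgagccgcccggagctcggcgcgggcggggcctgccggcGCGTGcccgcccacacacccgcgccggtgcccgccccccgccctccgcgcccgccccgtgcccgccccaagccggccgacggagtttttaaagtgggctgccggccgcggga

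HIF1A promoter, chr14:61695263-61695512, plus strand: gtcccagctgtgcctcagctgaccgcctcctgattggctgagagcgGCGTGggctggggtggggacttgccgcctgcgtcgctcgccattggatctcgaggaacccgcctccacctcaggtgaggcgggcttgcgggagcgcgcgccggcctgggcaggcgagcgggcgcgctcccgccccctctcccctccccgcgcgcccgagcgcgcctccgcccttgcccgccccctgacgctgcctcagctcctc

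ARNT promoter, chr1:150876769-150876849, minus strand: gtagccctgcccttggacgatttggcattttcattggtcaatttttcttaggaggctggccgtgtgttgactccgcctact

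EGLN1 promoter, chr1:231422288-231422317, minus strand: ccgcggggccgtggtgtACGTGcagagcgc

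EGLN2 promoter, chr19:40799112-40799171, plus strand: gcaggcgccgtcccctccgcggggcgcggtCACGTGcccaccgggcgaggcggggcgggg

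EPAS1 and HIF1A each held 1 GCGTG, at positions -117 and -204 from the start, and ARNT held no match in its whole window of 250 bases. EGLN1 held 1 ACGTG at position -13. In EGLN2 the capitals read CACGTG, which contains ACGTG on each strand. The windows of HIF1AN and EGLN3 and those at the second RefSeq starts of HIF1A and EGLN2 held no match. Of 35116 promoters of the same length, 18.5% held ACGTG, 32.2% held GCGTG and 43.2% held either. The windows of EPAS1 and HIF1A were rich in G and C, at 80.8% and 75.6% against a median of 58.0% over all promoters, and that of ARNT stood at 64.4%. A match describes the sequence and does not show binding.

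In control cells the 8 mRNAs spanned a wide range. On the deposited FPKM scale, which corrects for length and so allows genes to be compared, HIF1A had the highest mean level at 16.4 ± 3.14 FPKM (SD, n = 3). HIF1AN followed at 11.7 ± 0.442, EPAS1 at 10.4 ± 1.42, VHL at 8.69 ± 0.486 and ARNT at 5.29 ± 0.84 FPKM. The prolyl hydroxylases were low, with EGLN1 at 1.2 ± 0.332, EGLN3 at 1.04 ± 0.04 and EGLN2 at 0.733 ± 0.099 FPKM. The control libraries of HIF1AN and EPAS1, of EPAS1 and VHL, and of EGLN1 and EGLN3 overlapped, so these neighbours were not separated by their spread. EGLN2 lay below EGLN3 without overlap, which places it last in the controls. The exons of EGLN2 overlap those of a readthrough gene, as given below, so its level may be understated. Those of HIF1AN overlap a gene on the opposite strand, also given below, which may affect the level of HIF1AN.

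The order changed at the top in the knockdowns. In TRIM28 knockdown cells HIF1AN led at 11.2 ± 0.307 FPKM, above HIF1A at 8.97 ± 1.18, VHL at 7.62 ± 1.01, EPAS1 at 5.68 ± 0.518 and ARNT at 2.84 ± 0.252 FPKM. The libraries of HIF1A and VHL overlapped there. In PARP1 knockdown cells HIF1AN led at 10.5 ± 0.628 FPKM, followed by VHL at 5.92 ± 1.55, HIF1A at 4.89 ± 1.7, EPAS1 at 2.65 ± 1.11 and ARNT at 1.43 ± 0.384 FPKM. In the PARP1 knockdown the libraries of VHL and HIF1A overlapped, as did those of HIF1A and EPAS1. By mean FPKM the 3 prolyl hydroxylases were the lowest members in each group, with means of 0.823 to 1.13 FPKM after TRIM28 knockdown and 0.617 to 1.01 FPKM after PARP1 knockdown.

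**Figure D1:**
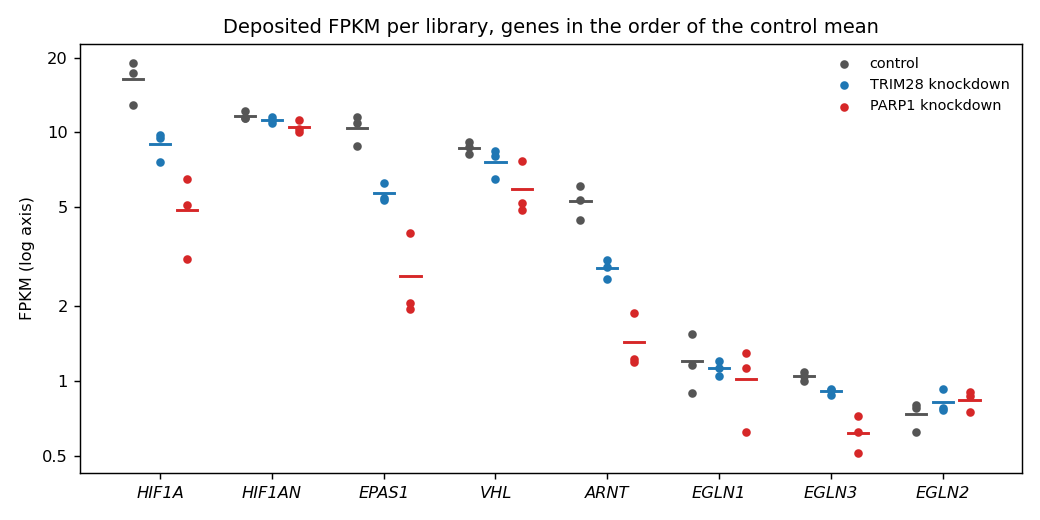
Deposited FPKM of the 8 genes on a log axis, with 1 point per library, a bar at each group's mean (n = 3) and genes in the order of the control mean. HIF1A leads the controls at a mean of 16.4 FPKM, HIF1AN leads both knockdown groups, and the 3 EGLN genes lie near 1 FPKM or below.

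The 3 HIF subunit mRNAs were lower in both knockdowns, and the mRNAs of VHL and the 4 hydroxylases were not called in either. After TRIM28 knockdown EPAS1, HIF1A and ARNT were at 60.9%, 61.3% and 60.2% of control. After PARP1 knockdown they were at 31.6%, 37.4% and 33.8%. Of the 8 genes, 3 fell, 0 rose and 5 were not called after TRIM28 knockdown, where 27.8% of the 13562 tested genes were called, 17.5% as lower and 10.3% as higher. The same 3, 0 and 5 were counted after PARP1 knockdown, where 59.3% of tested genes were called, 32.2% as lower and 27.1% as higher. Calls are at a Benjamini-Hochberg adjusted p of 0.05 in the quasi-likelihood test of edgeR, and both comparisons use the same controls. The median log2 fold change was -0.72 for the subunits and 0.07 for the other 5 members after TRIM28 knockdown, against -0.019 over all tested genes. After PARP1 knockdown these medians were -1.56, 0.09 and -0.069. In RNA from whole cultures, fewer cells that express a gene and less of its mRNA per cell cannot be told apart.

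EPAS1 (ENSG00000116016, chr2:46293667-46386697, plus strand, GRCh38) encodes HIF-2 alpha. Its level was 73.1, 70.6 and 60 CPM (counts scaled to library size with TMM factors) in control replicates 1 to 3. It was 39, 39.9 and 45.1 CPM in the TRIM28 knockdown and 29.7, 16.5 and 17.8 CPM in the PARP1 knockdown. The controls were highest, the PARP1 knockdown lowest, and none of the 3 groups overlapped. Of all tested genes, 46.4% had no overlap between TRIM28 knockdown and control, 63.5% between PARP1 knockdown and control and 39.4% between the knockdowns, in either direction, and the absence of overlap in HIF1A and ARNT is to be read against the same shares. The log2 fold change was -0.72 (SE 0.167, adjusted p = 0.00286) for TRIM28 knockdown and -1.66 (SE 0.174, adjusted p = 2.5e-08) for PARP1 knockdown. In the ranking of all tested genes, 14.8% and 4.82% had a lower log2 fold change than EPAS1 in these comparisons.

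HIF1A (ENSG00000100644, chr14:61695513-61748259, plus strand) encodes HIF-1 alpha. Its level was 84.7, 78.8 and 61.8 CPM in the controls, 49.8, 40.2 and 48.1 CPM in the TRIM28 knockdown and 34.6, 30.4 and 18.9 CPM in the PARP1 knockdown. Again the groups did not overlap, and replicate 3 was the lowest library of both the control and the PARP1 knockdown group. HIF1A had a log2 fold change of -0.705 (SE 0.17, adjusted p = 0.00362) after TRIM28 knockdown and -1.42 (SE 0.175, adjusted p = 2.65e-07) after PARP1 knockdown. A lower log2 fold change was found for 15.2% and 8.94% of tested genes. The antisense gene HIF1A-AS1, whose exons share 117 bases with those of HIF1A in GENCODE 29, had reads amounting to 0.784% of those of HIF1A.

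ARNT (ENSG00000143437, chr1:150809713-150876708, minus strand) encodes the beta subunit shared by both alpha subunits. Its level was 34.2, 30.4 and 26.6 CPM in the controls. It was 19.5, 17 and 18.3 CPM in the TRIM28 knockdown and 12.5, 8.88 and 9.3 CPM in the PARP1 knockdown. All 3 groups were apart, in the order seen for the alpha subunits. ARNT changed by -0.73 (SE 0.16, adjusted p = 0.00171) and -1.56 (SE 0.169, adjusted p = 3.8e-08), and 14.3% and 6.25% of tested genes lay lower.

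**Figure D2:**
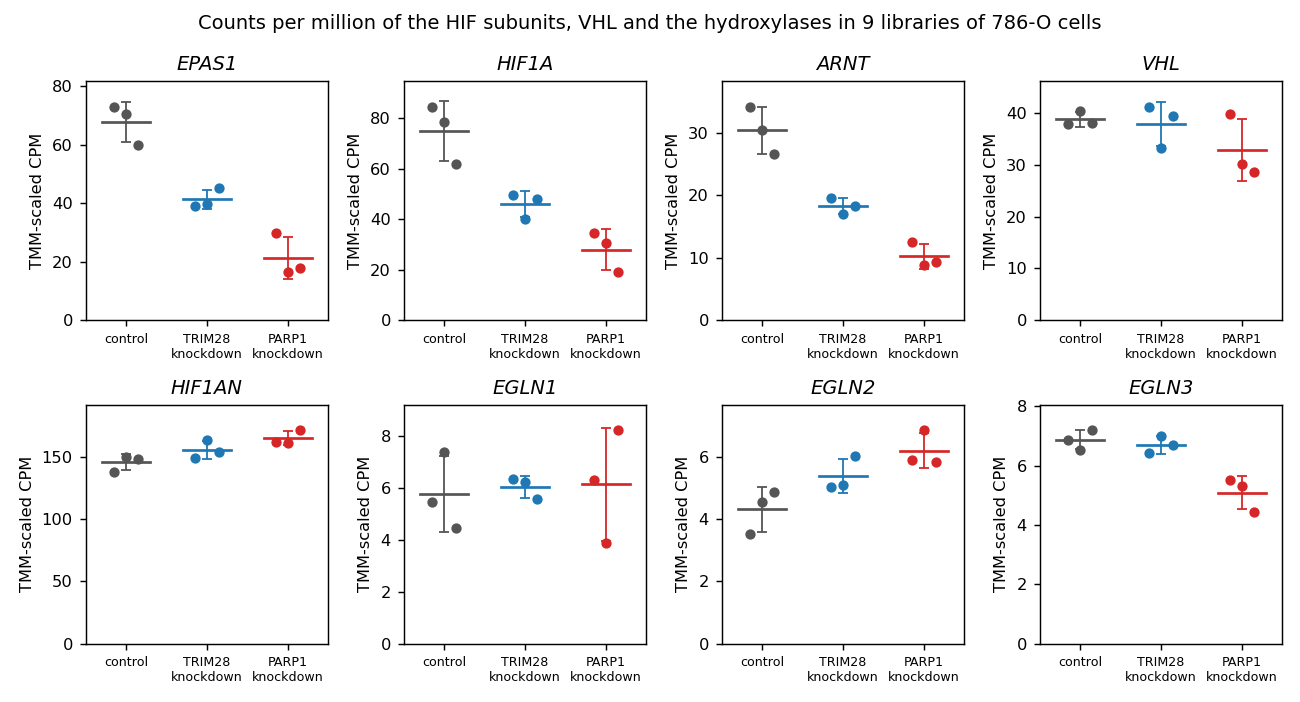
TMM-scaled CPM of each gene in the 9 libraries, with 1 point per library, a bar at the group mean and error bars of 1 SD (n = 3), each axis starting at 0. EPAS1, HIF1A and ARNT step down from control to TRIM28 knockdown to PARP1 knockdown without overlap, and the other 5 genes show no such steps.

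The knockdowns also differed from each other in the subunits. In the direct comparison of TRIM28 with PARP1 knockdown, 3 of the 8 genes were called, all higher in the TRIM28 knockdown, where 25.1% of tested genes were called, 13.2% as higher and 11.9% as lower. EPAS1 was 1.92-fold higher (log2 fold change 0.94, SE 0.174, adjusted p = 0.000803), ARNT 1.78-fold higher (0.83, SE 0.171, adjusted p = 0.00172) and HIF1A 1.64-fold higher (0.71, SE 0.175, adjusted p = 0.00508). The median over all tested genes was 0.035.

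No difference between groups was detected in the level of EPAS1 relative to HIF1A. The FPKM ratio of EPAS1 to HIF1A, which does not depend on how a library is scaled, was 0.609, 0.633 and 0.686 in the controls. It was 0.553, 0.702 and 0.662 in the TRIM28 knockdown and 0.606, 0.383 and 0.665 in the PARP1 knockdown. The groups overlapped, and replicate 2 of the PARP1 knockdown was the lowest library. Group geometric means were 0.642, 0.636 and 0.536. The ratio can still follow the length and GC trends described below, and it was not recomputed with the GC trend removed. Exact two-sided permutation tests gave p = 1.0 for TRIM28 knockdown and p = 0.4 for PARP1 knockdown against control, and with 3 against 3 no p can go below 0.1. Adjusted over 9 tests of 3 ratios, the values were 1.0 and 0.79.

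Gene length and base composition moved with the groups, and the subunit falls were recomputed with these trends removed. Among 10 classes of equal size by exon length, the median log2 fold change went from 0.33 in the shortest to -0.39 in the longest after TRIM28 knockdown, and from 0.65 to -0.67 after PARP1 knockdown. EPAS1, with 7291 exonic bases, belonged to class 8, where the medians were -0.24 and -0.49. ARNT, with 6448 bases, belonged to class 7, where they were -0.17 and -0.38. HIF1A, with 5151 bases, belonged to class 6, where they were -0.06 and -0.16, but its GC content of 38.86% put it in the lowest GC class, where they were -0.38 and -0.59. With length and GC trends removed, EPAS1 was at -0.58 and -1.38, ARNT at -0.46 and -0.998 and HIF1A at -0.40 and -0.92 for TRIM28 and PARP1 knockdown. Of these values only that of HIF1A after TRIM28 knockdown was no longer called (adjusted p = 0.0866).

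**Figure D3:**
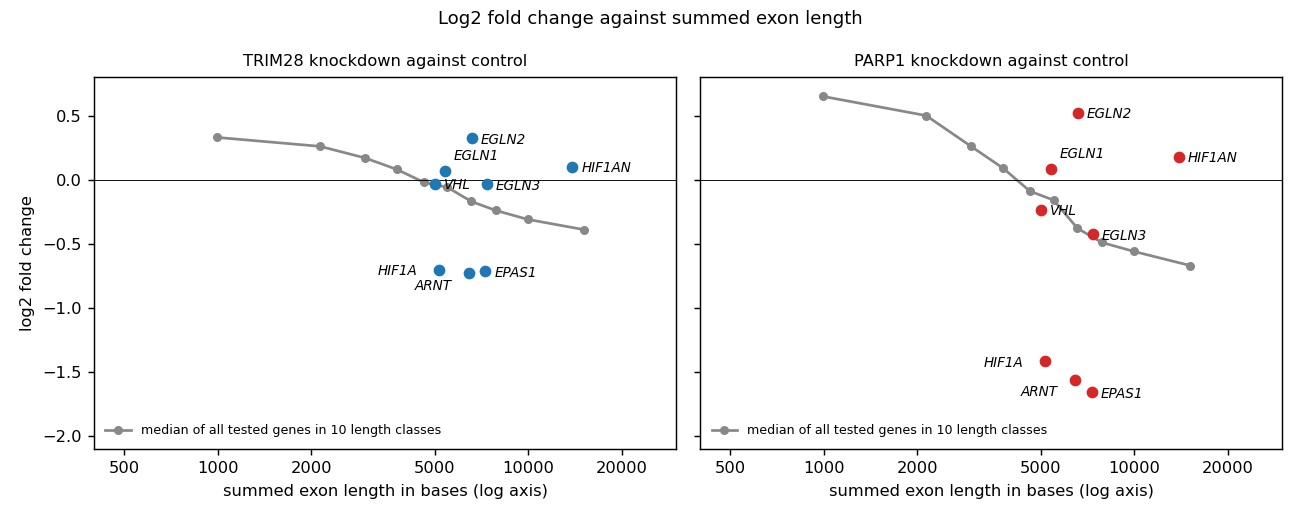
Log2 fold change of the 8 genes against summed exon length on a log axis, with the median of all tested genes in 10 length classes as a grey line. EPAS1, HIF1A and ARNT lie below the line in both panels, and HIF1AN, at 13894 bases, lies above it.

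VHL (ENSG00000134086, chr3:10141778-10153667, plus strand) encodes the substrate receptor of the ligase that takes up hydroxylated alpha subunits. Its level was 37.9, 40.5 and 38.1 CPM in the controls, 41.3, 33.2 and 39.5 CPM in the TRIM28 knockdown and 39.8, 30.2 and 28.7 CPM in the PARP1 knockdown. The groups overlapped in every comparison, with PARP1 knockdown replicate 1 at control level and replicates 2 and 3 below all controls. The log2 fold change was -0.03 (95% interval -0.331 to 0.271, adjusted p = 0.901) after TRIM28 knockdown. After PARP1 knockdown it was -0.235 (-0.539 to 0.069, adjusted p = 0.174). That second value depended on scaling and on 1 library. It was called at -0.55 (adjusted p = 0.011) when scaled by library totals instead of TMM factors, and at -0.40 (adjusted p = 0.017) without PARP1 knockdown replicate 1, while with length and GC trends removed it was 0.21 and not called.

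HIF1AN (ENSG00000166135, chr10:100529072-100559998, plus strand) encodes the asparaginyl hydroxylase known as FIH. Its level was 138, 150 and 148 CPM in the controls, 149, 163 and 154 CPM in the TRIM28 knockdown and 162, 161 and 171 CPM in the PARP1 knockdown. The TRIM28 knockdown overlapped the controls, and the PARP1 knockdown lay above them. The same held, in either direction, for 63.5% of tested genes. The log2 fold change was 0.10 (95% interval -0.152 to 0.353, adjusted p = 0.575) and 0.18 (-0.073 to 0.433, adjusted p = 0.213), so neither was called. The value turned with scaling, to -0.06 and -0.15 with library totals.

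HIF1AN was also the longest member, in a length class whose median log2 fold changes were -0.39 and -0.67. With the length trend removed it was called as higher, at 0.46 (adjusted p = 0.0113) after TRIM28 knockdown and 0.79 (adjusted p = 1.53e-05) after PARP1 knockdown. Its counts may have gained or lost reads through overlap with a neighbour. NDUFB8, a gene of respiratory complex I on the opposite strand, shares 325 exonic bases with it in GENCODE 29, and its counts were 70.7% of those of HIF1AN. NDUFB8 rose, by 0.73 (adjusted p = 0.000821) and 1.17 (adjusted p = 4.32e-07). The library kit keeps strand, but no source used here gives the strand setting of the counting. Any effect of NDUFB8 on the HIF1AN values was not tested.

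EGLN1 (ENSG00000135766, chr1:231363751-231422287, minus strand) encodes PHD2, the main prolyl hydroxylase of HIF-1 alpha in most cells. Its level was 5.44, 7.36 and 4.47 CPM in the controls, 6.35, 6.22 and 5.55 CPM in the TRIM28 knockdown and 6.29, 3.89 and 8.21 CPM in the PARP1 knockdown. The groups overlapped throughout, and the PARP1 knockdown held both the lowest and the highest of the 9 libraries. EGLN1 had log2 fold changes of 0.07 (95% interval -0.442 to 0.579) and 0.085 (-0.433 to 0.604), with adjusted p of 0.866 and 0.787. Its counts were 46 to 152 reads per library. These intervals allow changes in either direction, and the smallest detectable change was not computed. With length and GC trends removed, EGLN1 was called as higher after PARP1 knockdown, at 0.71 (adjusted p = 0.0217).

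EGLN2 (ENSG00000269858, chr19:40798996-40808434, plus strand) encodes PHD1. Its level was 3.51, 4.55 and 4.88 CPM in the controls, 5.04, 5.1 and 6.03 CPM in the TRIM28 knockdown and 5.9, 6.85 and 5.84 CPM in the PARP1 knockdown. Both knockdown groups lay above all controls, and 46.4% of tested genes in the TRIM28 comparison and 63.5% in the PARP1 comparison likewise had no overlap in either direction. EGLN2 had a log2 fold change of 0.32 (95% interval -0.141 to 0.784, adjusted p = 0.298) after TRIM28 knockdown and 0.52 (0.054 to 0.985, adjusted p = 0.0507) after PARP1 knockdown. The second value lay at the threshold. It was called at 0.57 with DESeq2 (adjusted p = 0.027) and at 0.66 without control replicate 3 (adjusted p = 0.0173), and was 0.09 to 0.85 over all alternatives. EGLN2 shares 2012 exonic bases with the readthrough gene RAB4B-EGLN2, which held 9 reads in all libraries together. Reads that fall on both genes may be in neither count, and any such loss from EGLN2 was not tested.

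EGLN3 (ENSG00000129521, chr14:33924227-34462774, minus strand) encodes PHD3, itself a known HIF target. Its level was 6.88, 6.54 and 7.19 CPM in the controls and 6.41, 7.01 and 6.69 CPM in the TRIM28 knockdown, which overlapped. In the PARP1 knockdown it was 5.5, 5.33 and 4.45 CPM, below every other library, and 63.5% of tested genes likewise had no overlap between PARP1 knockdown and control. The log2 fold change was -0.04 (95% interval -0.451 to 0.379, adjusted p = 0.914) after TRIM28 knockdown and -0.425 (-0.855 to 0.005, adjusted p = 0.0824) after PARP1 knockdown. Neither was called. The knockdown groups did not overlap each other, as for 39.4% of tested genes, and their difference was 0.39 (adjusted p = 0.188). With library totals the PARP1 value was called at -0.745 (adjusted p = 0.00479), and with length and GC trends removed it turned to 0.21. The span given for EGLN3 also contains SPTSSA on the same strand, a gene with no exonic bases in common with it.

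In the balance among the prolyl hydroxylases no difference between groups was detected either. The FPKM ratio of EGLN2 to EGLN1 had geometric means of 0.623, 0.729 and 0.866 in the control, TRIM28 knockdown and PARP1 knockdown groups. The ratio of EGLN3 to EGLN1 had means of 0.892, 0.809 and 0.632 in the same order. All groups overlapped in both ratios, and the exact permutation tests gave p between 0.4 and 0.7, each 0.79 when adjusted over the 9 tests.

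**Figure D4:**
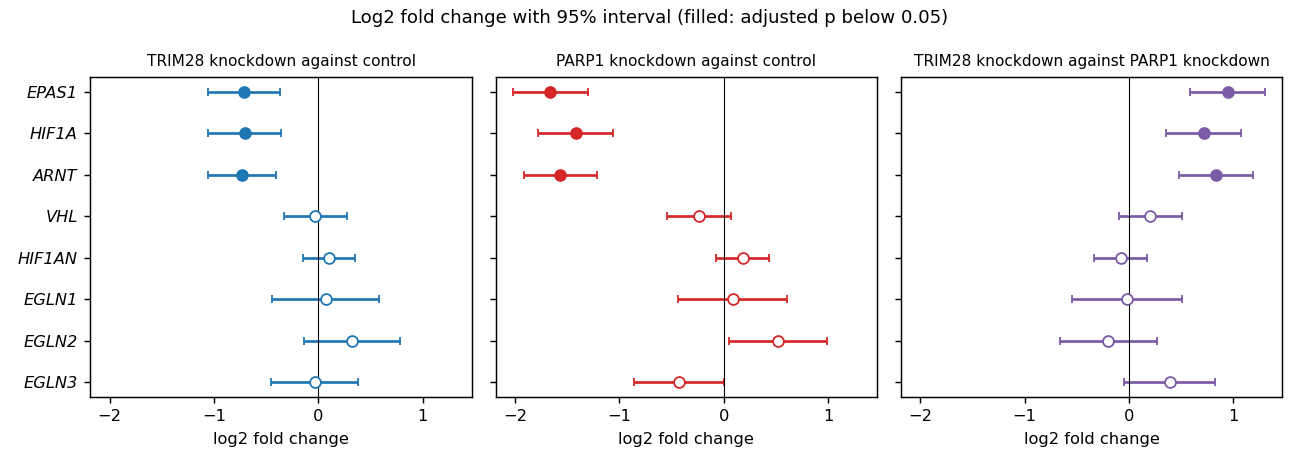
Log2 fold change of each gene in the 3 comparisons with its 95% interval, filled where the adjusted p was below 0.05. The 3 HIF subunits are filled in each panel, and VHL and the 4 hydroxylases are open with intervals that reach 0 or, for EGLN2 after PARP1 knockdown, end just above it.

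Across the 16 alternatives tried for each gene and comparison, the subunit falls kept their direction. In the 48 combinations of subunit and alternative, 47 were called after TRIM28 knockdown, with log2 fold changes of -0.893 to -0.403, and 48 of 48 after PARP1 knockdown, at -2.004 to -0.919. In the direct comparison 47 of 48 were called, the exception being HIF1A, at 0.52 and an adjusted p of 0.0524 once length and GC trends were removed. Scaling by library totals moved the median of all tested genes by -0.158 and -0.326 for TRIM28 and PARP1 knockdown.

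**Figure D5:**
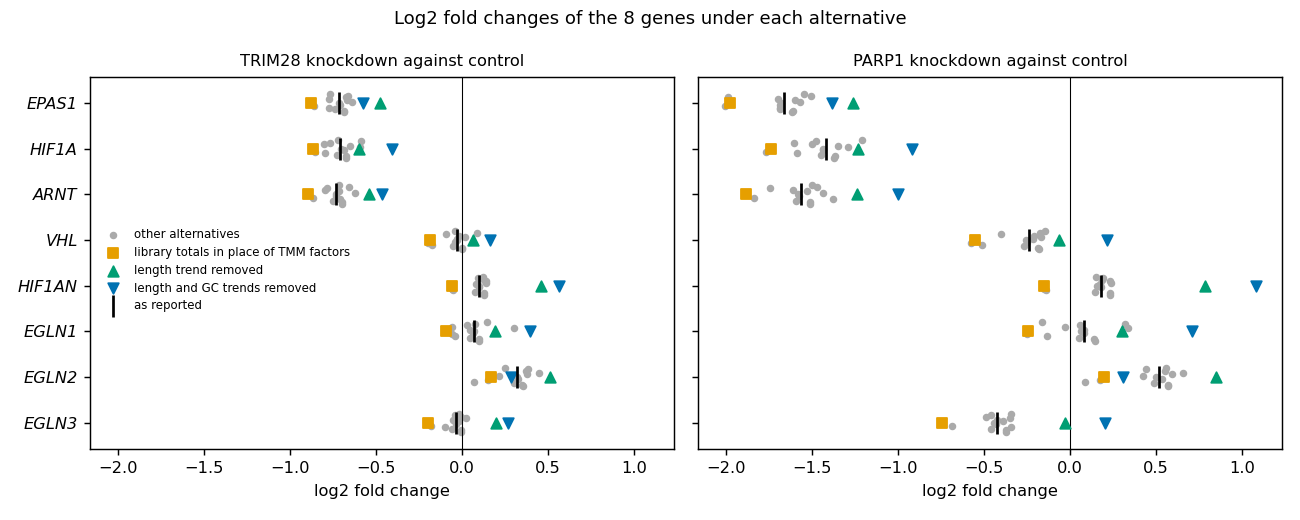
Log2 fold change of each gene as reported (black bar) and under each alternative, with library totals, the length trend removed and the length and GC trends removed picked out by shape. EPAS1, HIF1A and ARNT lie left of 0 under all alternatives, and VHL, HIF1AN, EGLN1 and EGLN3 lie on both sides of 0 in each panel.

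Over the 9 libraries the log2 CPM of the 3 subunits ran closely together. Pearson's r was 0.99 for EPAS1 with ARNT, 0.96 for HIF1A with ARNT and 0.94 for EPAS1 with HIF1A, and the libraries share their 3 groups, so these values describe the group steps as much as any tie between genes. EGLN3 (0.86, 0.85 and 0.83 with EPAS1, HIF1A and ARNT) and VHL (0.75, 0.75 and 0.7) also ran with the subunits. HIF1AN and EGLN2 ran against them, at -0.82 with EPAS1 for each. EGLN1 followed none of the subunits, with r of 0.03, -0.18 and 0.01 for EPAS1, HIF1A and ARNT. The tested genes closest in pattern to EPAS1 were PRPF8 (r = 0.997), a core splicing factor, and CDYL (0.996). For HIF1A they were ELOVL5 (0.998) and TCP1 (0.997), a chaperonin subunit, and for ARNT they were ZNF317 (0.996) and RBM33 (0.995). For VHL they were COX18 (0.978) and MOCOS (0.974), for HIF1AN RILP (0.969) and ORAI2 (0.967), and for EGLN3 THOC5 (0.988). For EGLN2 they were FAM86JP (0.972) and MAN1B1-DT (0.971), and for EGLN1 LINC01443 (0.911) and TMEM44-AS2 (0.889).

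Genes listed around the VHL ubiquitin ligase moved in both directions while VHL itself was not called. The list holds ligase subunits, such as RBX1, ELOB and CUL2, and also other enzymes, such as UBE2S and USP33. Of 10 listed genes, all tested, 5 rose and 2 fell after TRIM28 knockdown with a median log2 fold change of 0.39, and 8 rose and 2 fell after PARP1 knockdown with a median of 0.71. These counts stand beside calls for 27.8% of all tested genes after TRIM28 knockdown and 59.3% after PARP1 knockdown. RBX1, the RING subunit, went from 159, 148 and 172 CPM in the controls to 240, 233 and 216 CPM after TRIM28 knockdown and 235, 311 and 332 CPM after PARP1 knockdown. Its log2 fold changes were 0.52 (adjusted p = 0.00661) and 0.87 (adjusted p = 7.08e-06), and the control libraries lay below all others. ELOB, the elongin B adaptor, rose after PARP1 knockdown by 1.26 (adjusted p = 5e-07), and UBE2S, a ubiquitin-conjugating enzyme, by 1.25 (adjusted p = 1.15e-07). UBE2S and NEDD8, the modifier that activates cullins, were called at 0.50 (adjusted p = 0.0113) and 0.43 (adjusted p = 0.0235) after TRIM28 knockdown, but not without control replicate 1 or 2. The cullin scaffold CUL2 fell by 0.80 (adjusted p = 0.0216) and 1.25 (adjusted p = 0.00029), and the deubiquitinase USP33 by 1.05 (adjusted p = 0.00355) and 1.25 (adjusted p = 0.000227). The count of rising genes of this list after TRIM28 knockdown was 1 without control replicate 1 or 2 and 8 without control replicate 3. With DESeq2 it was 7. With library totals 2 rose after TRIM28 knockdown (median 0.23) and 5 after PARP1 knockdown (median 0.38). With length and GC trends removed 3 rose (median 0.24) and 6 rose (median 0.49). Under that last setting CUL2 was no longer called in either comparison (-0.23 and -0.36). UBE2S was then not called after TRIM28 knockdown, at 0.17.

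Genes listed as other HIF family and partner subunits, a list that also holds clock genes, fell or were not called. Of 8 listed names 7 were in the table and 5 were tested, of which 2 fell after TRIM28 knockdown (median -0.53) and 3 after PARP1 knockdown (median -0.9), with 0 rising. Over all tested genes, 27.8% were called after TRIM28 knockdown, 17.5% as lower. The share called after PARP1 knockdown was close to the 59.3% of all tested genes, where 32.2% were called as lower. ARNT2, the paralogue of ARNT, was at 20.2, 16.6 and 18.7 CPM in the controls, 12.9, 10.9 and 11 CPM in the TRIM28 knockdown and 10.5, 9.56 and 3.76 CPM in the PARP1 knockdown. Both knockdown groups lay below the controls, by log2 fold changes of -0.67 (adjusted p = 0.0269) and -1.20 (adjusted p = 8.59e-05). AHR, the dioxin receptor that also dimerises with ARNT, was called after TRIM28 knockdown at -0.71 (adjusted p = 0.0408). The clock genes ARNTL and CLOCK were called after PARP1 knockdown at -1.22 (adjusted p = 0.000168) and -0.90 (adjusted p = 0.0248). These calls depended on the setting: 0 of 5 were called after TRIM28 knockdown with the length trend removed or without control replicate 1, and 1 of 5 after PARP1 knockdown with length and GC trends removed.

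Among coactivators and regulators of the alpha subunits, the acetyltransferase genes EP300 and CREBBP fell in both knockdowns. Of 20 listed genes 17 were tested, of which 6 rose and 5 fell after TRIM28 knockdown (median 0.22) and 7 rose and 8 fell after PARP1 knockdown (median -0.02), where 27.8% and 59.3% of all tested genes were called. EP300 was at 41.3, 37.6 and 20.5 CPM in the controls, 13.1, 16.3 and 15.2 CPM in the TRIM28 knockdown and 9.87, 9.73 and 12.6 CPM in the PARP1 knockdown. Control replicate 3 lay nearest the knockdowns, but no knockdown library reached it. EP300 fell by 1.16 (adjusted p = 0.000155) and 1.63 (adjusted p = 3.65e-07), and CREBBP by 1.03 (adjusted p = 4.07e-05) and 1.47 (adjusted p = 4.78e-08). HSP90AB1, a chaperone that binds HIF-1 alpha, fell from 2540, 2590 and 2030 CPM to 1200, 1080 and 1120 CPM after TRIM28 knockdown and 492, 451 and 318 CPM after PARP1 knockdown. That was a log2 fold change of -1.08 (adjusted p = 1.13e-05) and -2.50 (adjusted p = 1.49e-11), with all groups apart. RUVBL2, an ATPase of chromatin remodelling complexes, rose by 0.57 (adjusted p = 0.00433) and 1.05 (adjusted p = 8.98e-07), and FKBP8, a peptidyl-prolyl isomerase that binds EGLN1 protein, by 0.56 (adjusted p = 0.00679) and 1.14 (adjusted p = 5.71e-07). SIAH2, a ligase that targets prolyl hydroxylases, was at 0.48 after TRIM28 knockdown (adjusted p = 0.0171), and STUB1, a chaperone-associated ligase, at 1.10 after PARP1 knockdown (adjusted p = 1.34e-06). RUVBL2 and SIAH2 after TRIM28 knockdown, STUB1 after PARP1 knockdown and FKBP8 after both were no longer called once length and GC trends were removed.

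Other 2-oxoglutarate dioxygenases, relatives of the EGLN enzymes, were mostly not called after TRIM28 knockdown. Of 12 listed and tested genes, 1 fell and 0 rose (median -0.12), and 6 fell and 3 rose after PARP1 knockdown (median -0.41). Calls over all tested genes were also more frequent after PARP1 knockdown, at 59.3% against 27.8%. The RNA demethylase gene FTO was the one that fell in both, from 27.4, 24.2 and 18.9 CPM to 10.6, 10.8 and 12.8 CPM and to 10.3, 6.51 and 8.11 CPM. Its log2 fold changes were -1.04 (adjusted p = 0.000223) and -1.49 (adjusted p = 4.54e-07), and both knockdown groups lay below the controls. P4HTM, a transmembrane prolyl hydroxylase related to the EGLN enzymes, rose after PARP1 knockdown by 0.92 (adjusted p = 4.02e-05). RIOX1, a ribosomal oxygenase, and ALKBH5, an RNA demethylase, were called at 0.43 (adjusted p = 0.012) and 0.32 (adjusted p = 0.039), and KDM5C, a histone demethylase, and RIOX2 at -0.76 (adjusted p = 0.000299) and -0.77 (adjusted p = 0.000313). Of these, RIOX1, ALKBH5, KDM5C and RIOX2 lost their call or turned in direction under at least 1 scaling or trend alternative, and with the length trend removed 2 of the 12 genes fell after PARP1 knockdown.

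Known HIF target genes moved in both directions. Of 30 listed genes 29 were tested, of which 2 rose and 6 fell after TRIM28 knockdown (median -0.11), and 8 rose and 12 fell after PARP1 knockdown (median -0.25). The share called after TRIM28 knockdown was close to the 27.8% of all tested genes, and that after PARP1 knockdown stands beside 59.3%. The hexokinase gene HK2 was at 64.5, 65.4 and 48.5 CPM in the controls, 29.8, 30.8 and 29 CPM in the TRIM28 knockdown and 23.6, 21 and 14.6 CPM in the PARP1 knockdown. It fell by 0.99 (adjusted p = 7.25e-05) and 1.58 (adjusted p = 2.29e-08), with no overlap with the controls. CCND1, the cyclin D1 gene, fell by 1.08 (adjusted p = 1.35e-05) and 1.34 (adjusted p = 8.26e-08), and P4HA1, a collagen prolyl hydroxylase, by 1.10 (adjusted p = 7.25e-05) and 1.59 (adjusted p = 1.2e-07). The glycolytic enzyme gene ENO1 went the other way, from 7180, 7510 and 8670 CPM to 10100, 10800 and 11100 CPM and to 11700, 12700 and 13300 CPM. It rose by 0.46 (adjusted p = 0.0085) and 0.69 (adjusted p = 3.95e-05). PGK1 was called at 0.41 after TRIM28 knockdown (adjusted p = 0.0174), and ALDOA and the lactate exporter gene SLC16A3 at 0.72 (adjusted p = 0.000127) and 0.60 (adjusted p = 0.000286) after PARP1 knockdown. Scaled by library totals, 3 targets rose and 15 fell after PARP1 knockdown, and the counts after TRIM28 knockdown were 6 rising and 5 falling with the length trend removed. PGK1 after TRIM28 knockdown was not called with library totals, ENO1 after TRIM28 knockdown not without control replicate 2, and ALDOA not with length and GC trends removed. ENO1, PGK1, ALDOA and HSP90AB1 have processed pseudogenes, among which reads could be split.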

How the data were processed

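The members, gene lists and tests were chosen with earlier results of these data known. Polyadenylated RNA was sequenced from 9 libraries in 3 groups of 3. Per the file headers, the table holds a raw read count for each gene, and its values are unnormalized whole numbers. The deposited FPKM of each gene, named so in the headers, equalled the count divided by summed exon length and library total. Other deposited columns hold coordinates and exon length. The submitters' processing notes list GRCh38, STAR 2.7.9a, Trim Galore 0.6.6, FastQC 0.11.9, R 4.0.3, DESeq2 1.30.0 and featureCounts 2.0.1. Strand setting and annotation release: not given in the sources used here.

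These counts went into the quasi-likelihood test of edgeR 4.0.16 under R 4.3.3 (TMM factors, the package's low-count filter leaving 13562 genes). All 9 libraries entered 1 fit of 3 groups with 6 residual degrees of freedom, two-sided, with Benjamini-Hochberg adjustment over all tested genes at 0.05. The coefficient of variation between replicates was 0.149. Levels of different genes were compared in FPKM, levels of 1 gene in TMM-scaled CPM. FPKM ratios were tested by exact permutation. Alternatives were DESeq2 1.42.0, other scalings, limma 3.58.1 on log2(FPKM + 1) and log2(FPKM + 0.1) for genes with a mean FPKM of at least 0.5, no low-count filter, a replicate block, lowess trends on exon length and GC content removed (GC known for 98.7% of tested genes), only the groups compared, and each library left out. Scripts were tested on simulated data. No replicate pair agreed within sampling noise.

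The text names all 8 members, both silenced genes, for each list and knockdown up to 3 genes per direction with the smallest adjusted p, and for each member the 2 tested genes with the highest Pearson's r of log2 CPM over the libraries; 1 of these is not reported here. Coordinates are those of the deposited table. Promoters are from RefSeq. Exons shared between neighbours are from GENCODE 29.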

Additional observations from a re-analysis of the deposited data

How the results depend on the processing

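Most values kept their call: of 384 combinations of member, comparison and alternative, 21 changed it, 2 of them by losing a call (HIF1A with length and GC trends removed). The number of members called after PARP1 knockdown was 5 in place of 3 with library totals, with limma on log2(FPKM + 1) or log2(FPKM + 0.1), after removing the length trend or both the length and GC trends, and 3 to 4 when 1 library was left out. In the direct comparison it was also 3 to 4, and after TRIM28 knockdown 3 whichever library was left out and 4 after removing the length trend, where HIF1AN was added. Over all tested genes, the 3768 calls after TRIM28 knockdown became 2353 with limma on log2(FPKM + 0.1) and 1537 to 4909 when 1 library was left out, the lowest without control replicate 1. It was 1855 without control replicate 2, and 2116 when TRIM28 knockdown replicate 2 was left out. The 8042 calls after PARP1 knockdown became 6862 to 8295. The 3407 calls between the knockdowns became 1858 with length and GC trends removed and 1654 to 4714 when 1 library was left out, the lowest without TRIM28 knockdown replicate 1, with 1712 without PARP1 knockdown replicate 3. With library totals the calls were 453 higher and 2856 lower after TRIM28 knockdown, against 1394 and 2374, 2024 higher and 5803 lower after PARP1 knockdown, against 3681 and 4361, and 2350 higher and 640 lower between the knockdowns, against 1795 and 1612. The cause was not tested.

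The difference between groups in the mean log2 ratio of EPAS1 to HIF1A was recomputed with 1 library left out. It was -0.086 to 0.087 for TRIM28 knockdown minus control and -0.414 to -0.017 for PARP1 knockdown minus control. For TRIM28 knockdown minus PARP1 knockdown it was 0.003 to 0.4. In the same order, this difference for EGLN3 over EGLN1 was -0.374 to 0.061, -0.829 to -0.16 and 0.019 to 0.688. For EGLN2 over EGLN1 it was 0.073 to 0.491, 0.103 to 0.763 and -0.536 to 0.124.

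Some called values turned in direction after PARP1 knockdown. TRIM28, reported at 0.31, was -0.011 with library totals, -0.013 with limma at either pseudocount, and -0.15 with length and GC trends removed. ALKBH5, reported at 0.32, was -0.003 with library totals, -0.012 with limma on log2(FPKM + 1) and -0.013 on log2(FPKM + 0.1). With length and GC trends removed SIAH2 (0.18 and not called as reported) was -0.54, RIOX1 -0.31, RIOX2 0.004 and CLOCK 0.041.

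With a replicate block the calls numbered 4085 after TRIM28 knockdown, 8071 after PARP1 knockdown and 3662 between the knockdowns. Same-numbered libraries of different groups correlated in their deviations from the group means by -0.081 to 0.141, and differently numbered ones by -0.164 to 0.118. Pairing by number is thus neither shown nor excluded. Among the members the block added 1 call, EGLN2 after PARP1 knockdown at 0.53 (adjusted p = 0.0432). The 3 EGLN genes had 45 to 156 reads per library, and the effect of depth on their calls was not tested.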
